A study of Mus musculus with 24 samples.

Results

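The genes described here are the chemokine Cxcl12, 6 other chemokines (Cxcl1, Cxcl5, Cxcl10, Ccl2, Ccl7 and Cx3cl1), the CXCL12 receptor Cxcr4 and the cytokine Il6. They are 9 of the 24043 genes in the deposited RNA-seq table. Cxcl12 was selected on its FPKM in these same libraries, lower in differentiation than in growth medium in normoxia but not in hypoxia. Those changes are given as a description and carry no test. The growth medium levels were the references in that choice, so the test of hypoxia in growth medium is not independent of it. The other 8 genes were added to it as chemokines, receptor and cytokine of one system.

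The libraries came from C2C12, an established mouse myoblast line, with 2 biological replicates (A and B) in each of 4 groups. Growth medium (DMEM, 10% fetal bovine serum, penicillin and streptomycin) was used at 21% oxygen (normoxia) or 2% oxygen (hypoxia). Differentiation medium (DMEM, 2% horse serum, an insulin-transferrin-selenium supplement) was used at the same oxygen levels; the number of days is not given in the sources used here. The labels name no drug, transgene or knockdown in any group, and all libraries come from this single line. Levels are FPKM, fragment counts divided by transcript length and by library size. Changes are differences of log2(FPKM + 1) with a standard error (SE) from limma, a linear model fitted over 12389 genes, and a gene is said to have risen or fallen where the Benjamini-Hochberg adjusted p over those genes was under 0.05. Because of the added 1, changes of genes at or below 1 FPKM come out too small on that scale.

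Chemokines are small secreted proteins that bind G protein-coupled receptors and direct the movement of cells along their gradient. CXCL12 binds CXCR4, which signals through inhibitory G proteins, and ACKR3, an atypical receptor that recruits arrestins and removes CXCL12 from the surroundings; in muscle this axis is known for guiding migrating muscle precursors. CXCL1 and CXCL5 attract neutrophils through CXCR2, CCL2 and CCL7 attract monocytes through CCR2, CX3CL1 is made as a membrane-bound chemokine, and CXCL10 is a chemokine induced by interferon. Interleukin 6 is secreted by muscle cells and signals through the gp130 protein, encoded by Il6st.

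The sequence just before the gene start is shown for 4 members that the results turn on: Cxcl12 itself, Cxcl1 as a CXC chemokine that fell where Cxcl12 was low, and Cxcl10 and Il6, which rose there. All are RefSeq sequences of the 250 bases upstream on build GRCm38.p6, which held an entry for 6 of the 9 members. Cxcl12 lies at chr6:117168285-117168534 on the plus strand, Cxcl1 at chr5:90890995-90891244 on the plus strand, Cxcl10 at chr5:92348890-92349139 on the minus strand, and Il6 at chr5:30012864-30013113 on the plus strand. Each is written 5′ to 3′ along the gene, and capitals mark matches to the core bound by hypoxia-inducible factors (ACGTG or GCGTG), to the NF-kB consensus and to the interferon-stimulated response element (GAAA, then any 2 bases, then GAAA), searched on both strands.
Cxcl12: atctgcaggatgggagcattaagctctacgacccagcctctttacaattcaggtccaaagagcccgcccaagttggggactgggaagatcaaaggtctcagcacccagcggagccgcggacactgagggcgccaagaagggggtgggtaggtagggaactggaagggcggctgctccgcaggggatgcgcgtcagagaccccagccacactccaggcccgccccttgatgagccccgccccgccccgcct
Cxcl1: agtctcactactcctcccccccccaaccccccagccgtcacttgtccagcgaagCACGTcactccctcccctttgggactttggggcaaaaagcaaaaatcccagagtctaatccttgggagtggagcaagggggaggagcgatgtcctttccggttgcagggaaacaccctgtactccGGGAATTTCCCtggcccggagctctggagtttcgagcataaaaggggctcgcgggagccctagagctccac
Cxcl10: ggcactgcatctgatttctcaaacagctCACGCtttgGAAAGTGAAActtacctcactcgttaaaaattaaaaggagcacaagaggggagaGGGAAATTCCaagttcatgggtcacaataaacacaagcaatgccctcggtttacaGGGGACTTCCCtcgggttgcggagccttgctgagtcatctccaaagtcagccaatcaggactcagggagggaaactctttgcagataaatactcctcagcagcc
Il6: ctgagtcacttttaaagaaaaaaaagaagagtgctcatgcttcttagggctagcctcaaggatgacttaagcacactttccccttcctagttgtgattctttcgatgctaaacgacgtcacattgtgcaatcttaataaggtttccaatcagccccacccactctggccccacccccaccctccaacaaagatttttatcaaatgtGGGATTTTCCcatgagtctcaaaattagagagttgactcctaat

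The Cxcl12 stretch held no match to any of these motifs, nor to a TATA box (TATAAA) or an E-box (CANNTG). It was GC-rich, at 64.4% with 14 CpG pairs, against medians of 52.4% and 6 over all 32841 promoters of the same length. In Cxcl1 a pair of NF-kB matches on opposite strands overlapped between -71 and -61 bases from the gene start, and a hypoxia-inducible factor core lay from -196 to -192. In Cxcl10 the interferon element lay from -213 to -204, with NF-kB matches from -159 to -150 and, overlapping each other, between -104 and -94; its hypoxia-inducible factor core lay from -222 to -218. In Il6 an NF-kB match lay from -44 to -35. Of all promoters, 38.6% held the hypoxia-inducible factor core, 7.25% the NF-kB consensus, 2.98% the interferon element, 12.4% the TATA box and 66.2% the E-box. Cx3cl1 and Cxcr4, the other members with an entry, held no NF-kB or interferon element match. Cxcr4 held a hypoxia-inducible factor core from -39 to -35 and overlapping TATA boxes between -32 and -25. Cx3cl1 held a TATA box from -6 to -1 and an E-box from -116 to -111. A match is a run of letters and not a measured binding site.

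**Figure D1:**
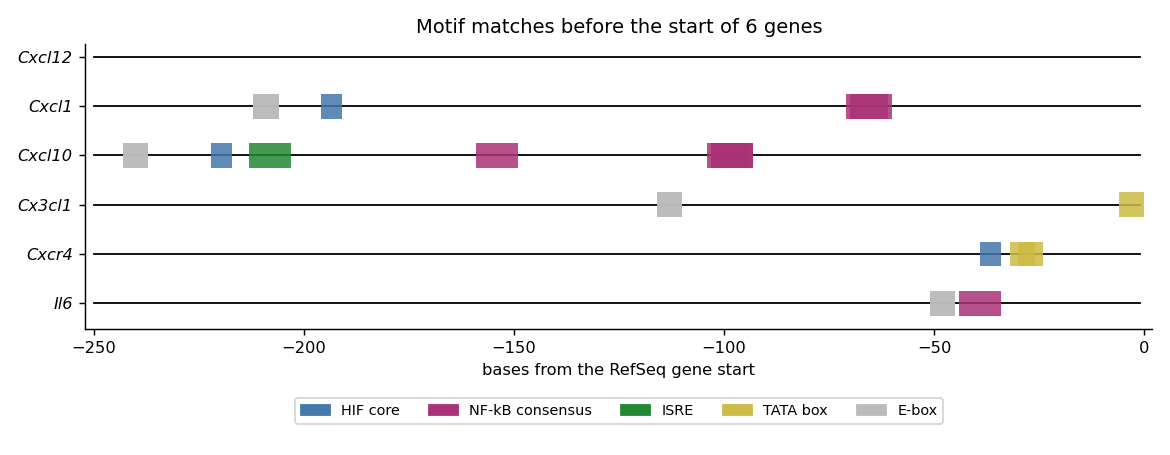
Positions of motif matches in the 250 bases before the RefSeq start of 6 genes (x axis, bases from the start), with each kind of motif in its own colour. Cxcl10 carries the interferon element at -213 to -204, Cxcl1, Cxcl10 and Il6 carry NF-kB matches, and the Cxcl12 line is empty.

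The deposited values summed to 480018 to 534167 FPKM per library, with 14917 to 15672 genes above 0. A single fragment on a 1000 bp gene was worth 0.0552 to 0.087 FPKM in the 7 libraries where it could be estimated, so values under about 0.166 to 0.261 FPKM rest on fewer than 3 fragments at that length. The oxygen labels fitted the summed level of 4 hypoxia-induced genes (Car9, Slc2a1, Ankrd37, Egln3), which was 122 to 363 FPKM in normoxic and 1570 to 2080 FPKM in hypoxic libraries. All 5 myoblast markers were above 1 FPKM in every library, and all 5 fell with hypoxia in both media: their sum was 414 to 492 FPKM in normoxic and 123 to 130 in hypoxic growth medium, and 780 to 794 in normoxic and 66.6 to 94.8 in hypoxic differentiation medium. The part of this shift in the oxygen comparisons that follow was not tested. The 6 myotube markers summed to 10100 and 10400 FPKM in normoxic differentiation medium but to 19 and 11 FPKM in hypoxic differentiation medium, so in those libraries the markers of myotubes were low, with 3 of the 6 above 1 FPKM; 4 of the 6 rose against hypoxic growth medium, where they summed to 2.96 and 3.59 FPKM. Their replicates also stood apart from each other: 4.95% of tested genes differed by more than 2-fold between them, against 0.452% to 0.573% in the other groups, and 4 cell division genes (Mki67, Ccnb1, Top2a, Cdk1) summed to 19.2 FPKM in replicate A and 101 FPKM in replicate B. Endothelial markers stayed under 1 FPKM in every library. Among 8 leukocyte markers, Adgre1 and Cd3e were listed at 0 in all libraries and Ptprc in all but hypoxic differentiation replicate B (0.0137 FPKM); the list's sum, carried by Cd68 and Cd14, was 12.5 to 14.4 FPKM in growth medium, 3.79 to 4.46 FPKM in normoxic and 33 to 54.4 FPKM in hypoxic differentiation medium. In such bulk RNA, fewer cells of a kind and less RNA per cell cannot be told apart.

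Cxcl12 was well above 100 FPKM in 3 of the groups and near 2 FPKM in normoxic differentiation medium. It was at 159.4 and 163 FPKM in normoxic and 140.7 and 139.6 in hypoxic growth medium, against 2.028 and 1.7 in normoxic and 192.7 and 127.6 in hypoxic differentiation medium. Only normoxic differentiation medium stood apart; the hypoxic differentiation libraries lay on either side of all growth medium libraries. On group means the level was 86.5-fold lower in normoxic differentiation medium (1.864 ± 0.232 FPKM, SD, n = 2) than in normoxic growth medium (161.2 ± 2.55), a log2 change of -5.83 ± 0.18 (SE). Between hypoxic growth medium (140.2 ± 0.712) and hypoxic differentiation medium (160.2 ± 46.1) the log2 change was 0.16 ± 0.18, and it was -0.13 without hypoxic differentiation replicate A and 0.46 without replicate B. In differentiation medium the hypoxic mean was 85.9-fold above the normoxic one, a log2 change of 5.79 ± 0.18 (5.49 without hypoxic differentiation replicate A and 6.08 without replicate B). The interaction, the change with differentiation medium in hypoxia minus that in normoxia, was 5.99 ± 0.25. These are the values that chose the gene.

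The change of Cxcl12 with hypoxia in growth medium was tested, although these levels were the references in the choice of the gene. The test is therefore not independent of that choice. The libraries of the 2 oxygen levels did not overlap, but the difference was small. Cxcl12 was at 0.87 times the normoxic level, a log2 change of -0.20 ± 0.18 with an adjusted p of 0.409 in the limma fit over all 8 libraries. When only the 4 growth medium libraries were fitted the same change had an adjusted p of 0.0454, so the call depends on which libraries are fitted. Over all genes, 41.4% passed this test in either direction.

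**Figure D2:**
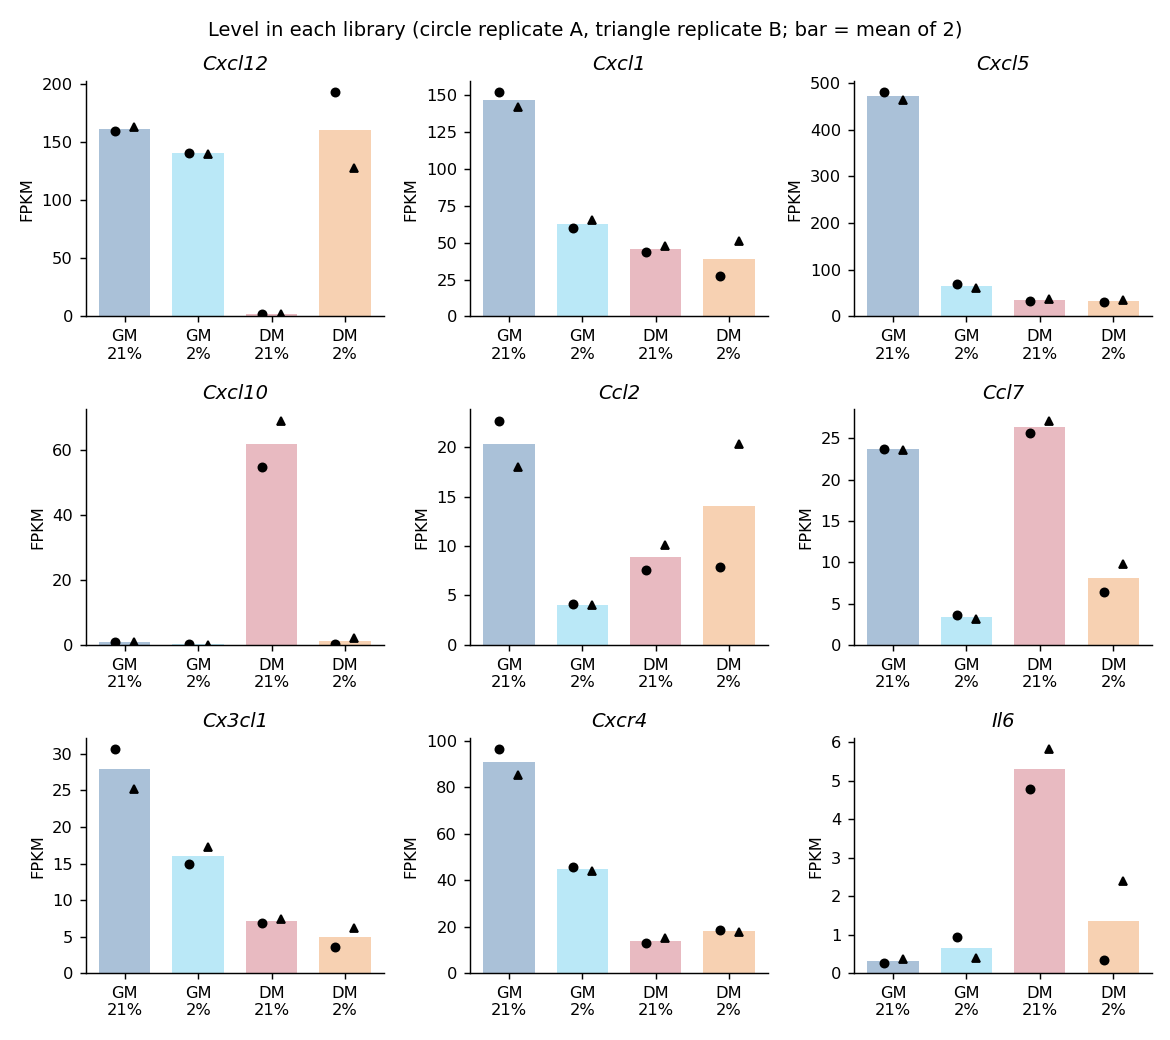
FPKM of each gene in each library (y axes linear and starting at 0; x axis, medium and oxygen; circles are replicate A, triangles replicate B, and bars the mean of both). Cxcl12 is near 0 only in normoxic differentiation medium, Cxcl10 and Il6 are highest there, and the hypoxic differentiation replicates are far apart for Cxcl12, Ccl2 and Cxcl1.

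The CXCL12 receptors had patterns of their own: Cxcr4 was highest in normoxic growth medium and Ackr3 in hypoxic growth medium. Cxcr4, the signalling receptor, was at 96.33 and 85.29 FPKM in normoxic and 45.63 and 44.15 in hypoxic growth medium, against 13.22 and 15 in normoxic and 18.44 and 17.94 in hypoxic differentiation medium. No neighbouring groups overlapped, and both kinds of differentiation library lay below all growth medium libraries. Cxcr4 fell 6.44-fold with differentiation medium in normoxia (log2 -2.60 ± 0.09, adjusted p 2.15e-06, limma) and 2.47-fold in hypoxia (-1.26 ± 0.09, adjusted p 0.000367). The difference between these changes passed its own test (interaction 1.35 ± 0.13, adjusted p 3e-04). In growth medium hypoxia lowered it 2.02-fold (-1 ± 0.09, adjusted p 0.00043). In differentiation medium it was 1.29-fold higher in hypoxia (0.35 ± 0.09, adjusted p 0.0156), a call lost without normoxic differentiation replicate A (0.26, adjusted p 0.0975) and after rescaling of the libraries by median of ratios (0.16, adjusted p 0.213).

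Ackr3, the scavenging receptor, was at 50.93 and 48.01 FPKM in normoxic and 87.65 and 89.21 in hypoxic growth medium, against 23.51 and 22.64 in normoxic and 64.63 and 68.64 in hypoxic differentiation medium. It was the higher of the 2 receptors in both hypoxic groups and in normoxic differentiation medium, and Cxcr4 was higher in normoxic growth medium. Ackr3 rose with hypoxia in growth medium (log2 0.83 ± 0.07, adjusted p 0.000314, limma) and 2.89-fold in differentiation medium (1.49 ± 0.07, adjusted p 6.19e-06). It fell with differentiation medium at both oxygen levels, by 1.07 on the log2 scale in normoxia and by 0.40 in hypoxia (adjusted p 2.82e-05 and 0.00569).

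Of 8 genes listed for CXCL12 signalling and handling, 7 were tested, and Dpp4, the peptidase that truncates CXCL12, was below the filter. With differentiation medium in normoxia 6 fell and 1 rose, where 41% of all genes fell and 25.5% rose; the largest changes were those of Cxcr4, of the inhibitory G protein gene Gnai2 (-1.77) and of the arrestin gene Arrb2 (-1.17), and the riser was Mif, an alternative CXCR4 ligand (0.90). Hypoxia in differentiation medium went with 6 genes higher and none lower, where 37.5% of all genes rose and 27.7% fell; Arrb1, the other arrestin gene, rose most (2.99), followed by Ackr3 and Gnai2 (1.37). In growth medium 3 rose with hypoxia, with Arrb1 (2.07) and Mif (1.72) in front, and 3 fell, where 13.5% of all genes rose and 28% fell. With differentiation medium in hypoxia 3 fell and none rose, where 17.6% of all genes fell and 23.3% rose.

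Cxcl5 and Cxcl1, the neutrophil-attracting ligands, were highest in normoxic growth medium and lower under both hypoxia and differentiation medium. Cxcl5 was at 480.4 and 464.6 FPKM in normoxic and 70.32 and 60.87 in hypoxic growth medium, against 32.32 and 37.96 in normoxic and 32.06 and 35.1 in hypoxic differentiation medium. Normoxic growth medium stood far above the rest, and the differentiation groups overlapped. Cxcl5 fell 13.4-fold with differentiation medium in normoxia (log2 -3.72 ± 0.11, adjusted p 9.34e-07, limma) and 7.2-fold with hypoxia in growth medium (-2.83 ± 0.11, adjusted p 2.51e-05). With differentiation medium in hypoxia it fell 1.95-fold (-0.94 ± 0.11, adjusted p 0.00134). The interaction was 2.77 ± 0.16 (adjusted p 3.08e-05). Between the differentiation groups the change was -0.06 ± 0.11 (adjusted p 0.648), which became 0.05 without normoxic differentiation replicate B and 0 without hypoxic differentiation replicate A.

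Cxcl1 was at 151.9 and 141.9 FPKM in normoxic and 60.05 and 65.19 in hypoxic growth medium, against 43.58 and 47.86 in normoxic and 27.25 and 51.04 in hypoxic differentiation medium. Its order of groups was that of Cxcl5, with a smaller span. Cxcl1 fell 3.21-fold with differentiation medium in normoxia (log2 -1.66 ± 0.26, adjusted p 0.00123, limma) and 2.35-fold with hypoxia in growth medium (-1.22 ± 0.26, adjusted p 0.00978). The second call was lost without normoxic growth replicate A (adjusted p 0.0608) or hypoxic growth replicate A (0.0629). With differentiation medium in hypoxia the change was -0.73 ± 0.26 (adjusted p 0.0603), and it passed under both other scalings. It was -0.29 without hypoxic differentiation replicate A and -1.17 without replicate B. Between the differentiation groups the change was -0.28 ± 0.26 (adjusted p 0.359). It had the opposite sign (0.16) without hypoxic differentiation replicate A and was a decrease of 0.72 without replicate B. The interaction, 0.93 ± 0.36, had an adjusted p of 0.0667. It was 1.37 without hypoxic differentiation replicate A and 0.49 without replicate B.

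The monocyte-attracting ligands Ccl7 and Ccl2 were lowest in hypoxic growth medium and not in normoxic differentiation medium. Ccl7 was at 23.76 and 23.59 FPKM in normoxic and 3.592 and 3.113 in hypoxic growth medium, against 25.66 and 27.15 in normoxic and 6.394 and 9.763 in hypoxic differentiation medium. Both normoxic groups lay above both hypoxic groups. Ccl7 fell 7.06-fold with hypoxia in growth medium (log2 -2.51 ± 0.17, adjusted p 0.000154, limma) and 3.27-fold with hypoxia in differentiation medium (-1.62 ± 0.17, adjusted p 0.000233). Differentiation medium raised it 2.41-fold in hypoxia (1.04 ± 0.17, adjusted p 0.00465; 0.053 with only those 4 libraries fitted), while the change in normoxia, 0.15 ± 0.17, did not pass (adjusted p 0.47) except under median-of-ratios scaling (0.42, adjusted p 0.0357). The interaction of 0.89 ± 0.25 (adjusted p 0.0215) was lost under that scaling (0.57, adjusted p 0.0502) and without either normoxic growth replicate (A 0.064, B 0.06), either normoxic differentiation replicate (A 0.0832, B 0.0671) or hypoxic growth replicate B (0.0765).

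Ccl2 was at 22.66 and 17.96 FPKM in normoxic and 4.114 and 4.016 in hypoxic growth medium, against 7.576 and 10.15 in normoxic and 7.827 and 20.32 in hypoxic differentiation medium. The hypoxic growth libraries lay below all others, and the hypoxic differentiation libraries overlapped both normoxic groups. Ccl2 fell 5-fold with hypoxia in growth medium (log2 -2.06 ± 0.38, adjusted p 0.00605, limma). With differentiation medium it rose 3.46-fold in hypoxia (1.44 ± 0.38, adjusted p 0.0251) and fell 2.29-fold in normoxia (-1.12 ± 0.38, adjusted p 0.038), with an interaction of 2.55 ± 0.54 (adjusted p 0.00746).

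The fall of Ccl2 in normoxia did not hold without normoxic growth replicate A or B (adjusted p 0.166 and 0.0838), hypoxic growth replicate A or B (0.0647 and 0.0647) or normoxic differentiation replicate A or B (0.184 and 0.0859), nor under median-of-ratios scaling (-0.86, adjusted p 0.0623). Its rise in hypoxia was 2.07 without hypoxic differentiation replicate A and 0.80 without replicate B, and it did not hold without hypoxic growth replicate A or B (0.103 and 0.11), without normoxic differentiation replicate A or B (0.0543 and 0.0545) or with only those 4 libraries fitted (0.105). Between the differentiation groups the Ccl2 change was 0.49 ± 0.38 (adjusted p 0.295). It was 1.12 without hypoxic differentiation replicate A and -0.15 without replicate B.

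Ccl5, the remaining CC ligand to reach a group mean of 10 FPKM, was at 8.224 and 5.756 FPKM in normoxic and 2.535 and 2.528 in hypoxic growth medium, against 14.4 and 12.87 in normoxic and 3.319 and 11.54 in hypoxic differentiation medium. None of its 5 changes passed in the limma fit (lowest adjusted p 0.0806, for hypoxia in growth medium).

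Cx3cl1, the membrane-bound chemokine, was at 30.61 and 25.23 FPKM in normoxic and 14.88 and 17.26 in hypoxic growth medium, against 6.891 and 7.443 in normoxic and 3.648 and 6.253 in hypoxic differentiation medium. The groups followed each other with no overlap. Cx3cl1 fell 3.9-fold with differentiation medium in normoxia (log2 -1.82 ± 0.22, adjusted p 0.000356, limma) and 3.25-fold in hypoxia (-1.55 ± 0.22, adjusted p 0.00231). The difference between these, 0.27 ± 0.30, did not pass (adjusted p 0.485). It was -0.04 under median-of-ratios scaling, -0.05 without hypoxic differentiation replicate B and 0.59 without replicate A. Hypoxia lowered it 1.74-fold in growth medium (-0.76 ± 0.22, adjusted p 0.0299), a call lost without normoxic growth replicate A or B (0.152 and 0.0585), hypoxic growth replicate A or B (0.154 and 0.0816) or normoxic differentiation replicate A or B (0.0662 and 0.0663). In differentiation medium the change with hypoxia was -0.49 ± 0.22 (adjusted p 0.0836), and -0.81 without hypoxic differentiation replicate B. It passed when the libraries were rescaled by median of ratios (-0.67, adjusted p 0.017) or by upper quartile (-0.53, adjusted p 0.0389).

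**Figure D3:**
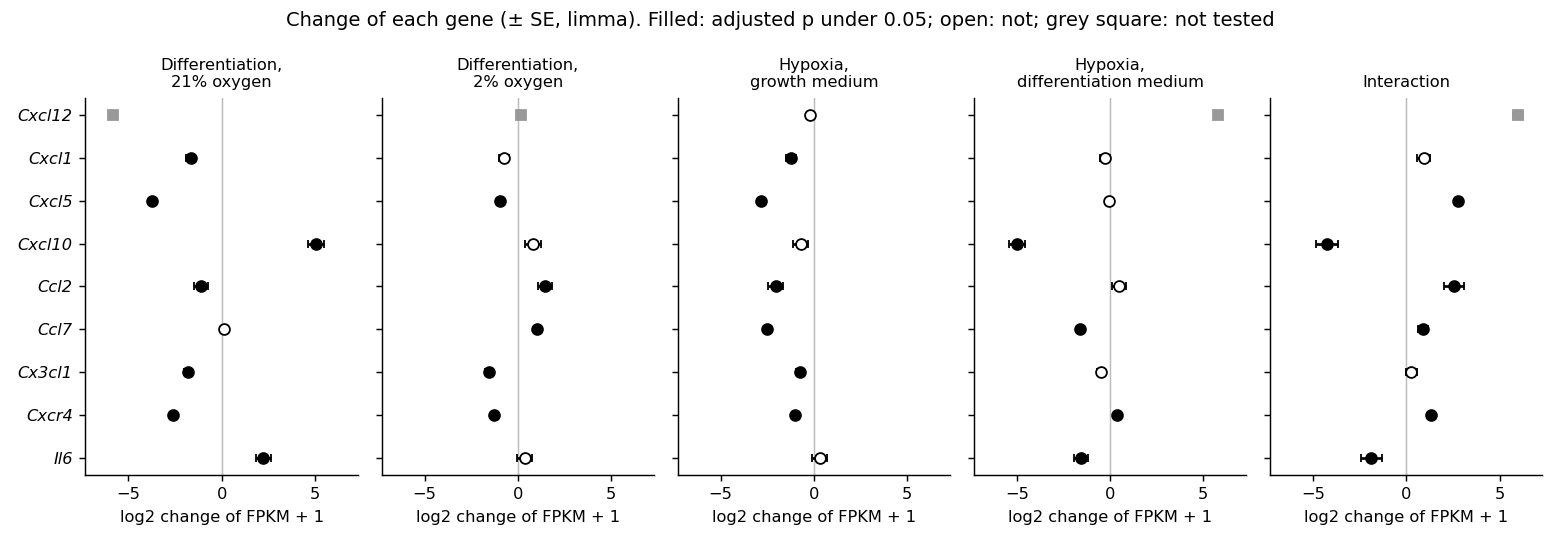
Log2 change of FPKM + 1 (x axis, with SE bars from limma) of each gene in the comparisons of medium and oxygen and in the interaction; filled points passed the adjusted p threshold, open points did not, and grey squares are Cxcl12 values without a test. Cxcl12 lies at -5.83 with differentiation medium in normoxia and at 0.16 in hypoxia, while Cxcl10 lies at 5.05 and 0.80.

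Cxcl10 was high only in normoxic differentiation medium, where Cxcl12 was low. It was at 0.9021 and 0.8569 FPKM in normoxic and 0.1623 and 0.1146 in hypoxic growth medium, against 54.7 and 69.02 in normoxic and 0.1927 and 2.284 in hypoxic differentiation medium. Normoxic differentiation medium stood above all other libraries, and the hypoxic growth libraries lay under the level that 3 fragments give on a 1000 bp gene. Cxcl10 rose 70.3-fold with differentiation medium in normoxia (log2 5.05 ± 0.42, adjusted p 7.37e-05, limma). The change in hypoxia was 0.80 ± 0.42 (adjusted p 0.176), and it was 1.53 without hypoxic differentiation replicate A. The interaction was -4.26 ± 0.60 (adjusted p 0.00133), and it was -3.53 without that replicate and -4.99 without replicate B. In differentiation medium Cxcl10 was lower in hypoxia (-4.98 ± 0.42, adjusted p 7.68e-05). In growth medium the change was -0.72 ± 0.42 (adjusted p 0.214), and it passed with only the growth medium libraries fitted (0.0015) and with quality weights (0.0435). Cxcl9, another interferon-induced CXCR3 ligand named after its values were seen, was at 6.752 and 7.95 FPKM in normoxic differentiation medium and at most 0.06377 FPKM in every other library.

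Interferon response genes showed the same contrast. All 22 listed genes passed the filter of a mean of 1 FPKM in at least 1 group, but 8 of them, Ifit1 and Ifit3 among them, reached it only in normoxic differentiation medium, so the filter set their direction against that group. Of the other 14, 13 rose with differentiation medium in normoxia and none fell, where 23.5% of all genes rose under the same restriction (median log2 change 2.69, against -0.23); Irf1, an interferon-responsive transcription factor, did not pass. Among these Isg15, a ubiquitin-like protein, changed by 6.37 ± 0.20 (adjusted p 1.09e-06, limma), from 3.612 and 5.662 FPKM to 442.2 and 475.9. The antiviral effectors Ifit3 and Ifit1 were at 108.8 and 110.9 FPKM and at 125.3 and 123.9 FPKM in normoxic differentiation medium, and at most 0.6492 FPKM in every other library. In hypoxia 2 of the 14 rose with differentiation medium and 4 fell, where 24.2% of all genes rose and 18% fell; Stat2, a transcription factor of interferon signalling, rose by 0.84 and Irf1 fell by 0.53. The hypoxic differentiation replicates differed for Stat2, at 7.304 FPKM in A and 10.88 in B, and for Irf1, at 17.07 and 21.46.

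Hypoxia in differentiation medium went with all of these 14 lower, where 25.8% of all genes were, and Isg15 changed most (-7.34) to 1.489 and 2.229 FPKM. The interaction passed for 12 of the 14, all negative, where 16.2% of all genes passed with that sign. In growth medium 7 of the 14 fell and 2 rose with hypoxia, where 28.5% of all genes fell and 13.6% rose; Isg15 (-1.23), the interferon-induced Ifi35 (-1.17) and Ifit2 (-0.88) were in front.

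Il6 was a low transcript with its highest level in normoxic differentiation medium. It was at 0.2817 and 0.3804 FPKM in normoxic and 0.9336 and 0.4072 in hypoxic growth medium, against 4.799 and 5.823 in normoxic and 0.3422 and 2.395 in hypoxic differentiation medium. Only normoxic differentiation medium stood apart, and the hypoxic groups overlapped. Il6 rose with differentiation medium in normoxia (log2 2.24 ± 0.40, adjusted p 0.00259, limma). It was 3.88-fold lower in hypoxic than in normoxic differentiation medium (-1.56 ± 0.40, adjusted p 0.013), a call lost without normoxic differentiation replicate A or B (0.052 and 0.0796) or with only those 4 libraries fitted (0.061); the change was -0.89 without hypoxic differentiation replicate A and -2.23 without replicate B.

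With differentiation medium in hypoxia the Il6 change was 0.37 ± 0.40 (adjusted p 0.503), which was 1.04 without hypoxic differentiation replicate A and -0.30 without replicate B. In growth medium the change with hypoxia was 0.31 ± 0.40 (adjusted p 0.576). The Il6 interaction of -1.87 ± 0.57 (adjusted p 0.0305) was lost without normoxic growth replicate A or B (0.0913 and 0.0768), hypoxic growth replicate A or B (0.101 and 0.0524) or normoxic differentiation replicate A or B (0.0761 and 0.106). It was -1.20 without hypoxic differentiation replicate A and -2.54 without replicate B.

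Around Il6, 15 of 17 listed genes of its family and signalling chain were tested. Cntfr reached 1 FPKM only in hypoxic differentiation medium, so the filter set its direction against that group. Counts over the other 14 are set against all genes under the same restriction. With differentiation medium in normoxia 3 rose and 6 fell (60%, against 66.5% of all genes). Il6, the receptor gene Lifr (-1.36) and its ligand Lif (1.32) changed most. Of the 14, 3 rose and 6 fell (64.3%, against 66.1%). In hypoxia 2 rose, Cntfr among them, and 7 fell (60%, against 40.9%). The oncostatin M receptor Osmr (-2.08), the feedback inhibitor Socs3 (-1.51) and the cytokine Clcf1 (-1.31) changed most. Of the 14, 1 rose and 7 fell (57.1%, against 42.2%). Hypoxia in differentiation medium went with 3 higher and 8 lower (73.3%, against 65.2%). Of the 14, 2 were higher and 8 lower (71.4%, against 64.9%). The shared receptor Il6st led these: it was at 76.65 and 77.52 FPKM in normoxic and 19.03 and 18.03 in hypoxic differentiation medium, and fell by 2.00 on the log2 scale (adjusted p 1.18e-05, limma). In growth medium 2 of the 14 rose and 5 fell with hypoxia (50%, against 42.1% of all genes). Lif (1.42), the kinase gene Jak1 (1.26) and the receptor gene Il11ra1 (-1.21) changed most.

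NF-kB is a transcription factor family known to drive many chemokine genes, and 20 of 24 listed family members, regulators and targets were tested. Il1b and Tnf reached 1 FPKM only in normoxic differentiation medium, so they are left out of the counts here. The same restriction was applied to all genes. With differentiation medium in normoxia 5 of the other 18 rose and 6 fell (61.1%, against 66.1% of all genes). The prostaglandin synthase Ptgs2 (3.01 ± 0.32) and the inhibitor Tnfaip3 (1.77 ± 0.11) rose (adjusted p 0.000231 and 1.86e-05, limma). The cytokine Il1b, which reached 1 FPKM only in normoxic differentiation medium, was at 11.42 and 10.81 FPKM in normoxic differentiation medium, at 0.1107 and 0.0427 in normoxic growth medium, and listed at 0 in all hypoxic libraries. In hypoxia 2 of the 18 rose and 3 fell (27.8%, against 42.2% of all genes). Ptgs2 was at 9.055 FPKM in hypoxic differentiation replicate A and 20.72 in replicate B, and Tnfaip3 at 17.6 and 15.88. Hypoxia in growth medium went with 4 higher and 7 lower (61.1%, against 42.1% of all genes). There the adhesion molecule Vcam1 fell by 3.6 (adjusted p 2.77e-05, limma), from 62.36 and 68.43 FPKM to 3.922 and 5.037. Hypoxia in differentiation medium went with 4 higher and 9 lower (72.2%, against 64.9%), with Vcam1 (-2.66) and the coactivator Bcl3 (-1.71) in front.

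**Figure D4:**
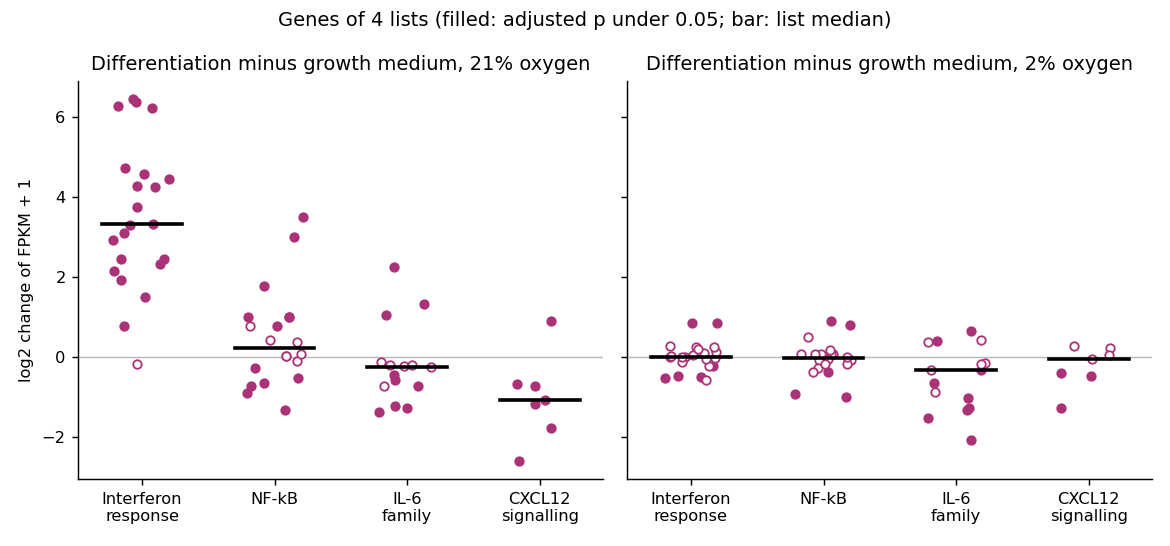
Log2 change of FPKM + 1 with differentiation medium (y axis) of each tested gene in the lists for the interferon response, NF-kB, the IL-6 family and CXCL12 signalling, at 21% oxygen (left) and 2% oxygen (right); filled points passed the limma threshold and bars are list medians. The interferon median is 3.31 in normoxia and 0.01 in hypoxia over all 22 genes, and 2.69 and -0.03 over the 14 that reached 1 FPKM in more than 1 group.

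Across the wider chemokine system, 63 ligand and receptor genes were listed, 18 were at 0 in every library, and 19 passed the filter, which were 17 ligands and 2 receptors (Cxcr4 and Ackr3). Of these, 6 low ligands, Cxcl9 among them, reached 1 FPKM in a single group (normoxic growth or normoxic differentiation medium), so the filter set their direction and they are left out of the counts here; the same restriction was applied to all genes. With Cxcl12 also set aside, differentiation medium in normoxia lowered 7 of 12 and raised 2, where 42.5% of all genes fell and 23.5% rose. In hypoxia it raised 4 and lowered 4, where 24.2% rose and 18% fell. Hypoxia in growth medium lowered 6 of 13, Cxcl12 not among them, and raised Ackr3, where 28.5% of all genes fell and 13.6% rose. Hypoxia in differentiation medium raised 4 of 12 and lowered 2, where 39.1% rose and 25.8% fell. The interaction passed for 8 of 12, 7 positive and 1 negative, where 36.6% and 16.2% of all genes did so. The comparisons share their groups, so these counts are not independent of each other.

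Among the 8 members other than Cxcl12, 2 rose and 5 fell with differentiation medium in normoxia, where 25.5% of all genes rose and 41% fell, and 2 rose and 3 fell in hypoxia, where 23.3% rose and 17.6% fell. By the interaction 4 were positive and 2 negative, where 35.4% and 18.7% of all genes were (54.1% in all). Hypoxia lowered 6 and raised none in growth medium, where 28% of all genes fell and 13.5% rose, and lowered 3 and raised 1 in differentiation medium, where 27.7% fell and 37.5% rose. The 2 hypoxic differentiation replicates differed, B minus A on the log2 scale, by -0.59 for Cxcl12, 0.88 for Cxcl1, 1.46 for Cxcl10, 1.27 for Ccl2 and 1.34 for Il6, and by -0.04 for Cxcr4 and 0.13 for Cxcl5, with a median of 0.09 over all genes. The cell division genes (19.2 and 101 FPKM) and the leukocyte list (33 and 54.4 FPKM) were also higher in replicate B; their part in these differences was not tested.

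The genes whose profile over the 8 libraries lay nearest to that of Cxcl12 were taken from 7864 genes with a group mean of at least 10 FPKM, by the root mean square difference of centred log2(FPKM + 1). They were Dynap (0.92, Pearson's r 0.976), Syt13 (0.93, r 0.972), Prl2c3 (0.94, r 0.946), Cdhr1 (0.94, r 0.948) and Ephb6 (0.95, r 0.959). No gene came nearer to Cxcl12 than 0.92. Dynap had means of 43.39, 59.81, 3.102 and 77.86 FPKM in normoxic growth, hypoxic growth, normoxic differentiation and hypoxic differentiation medium. Ephb6, an Eph receptor without kinase activity, had 71.54, 89.89, 3.3 and 38.63 FPKM in the same order. Prl2c3 has near-identical paralogs, so its values are uncertain. Nearest to Ccl2 were E2f8 (0.28, r 0.941), Lmcd1 (0.35, r 0.925), Hmg20b (0.36, r 0.927), Slc43a3 (0.36, r 0.911) and Skp2 (0.38, r 0.891). E2f8 and Skp2 are known for roles in the cell cycle. These likenesses are descriptions over 8 libraries that share their 4 groups.

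**Figure D5:**
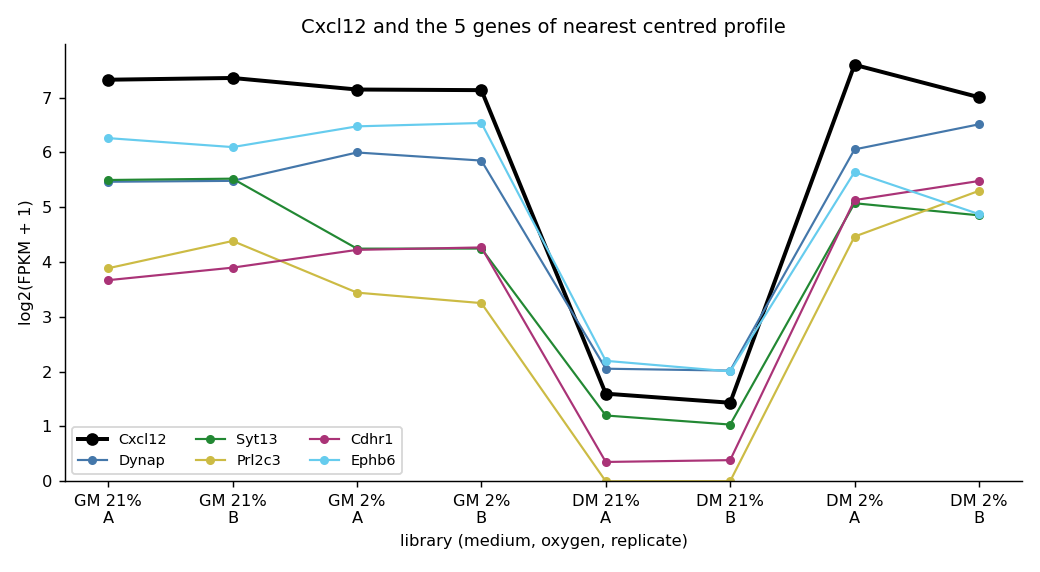
Log2(FPKM + 1) (y axis) in each of the 8 libraries (x axis, medium, oxygen and replicate) of Cxcl12 and the 5 genes of nearest profile. All 6 lines are lowest in the 2 normoxic differentiation libraries, and Cxcl12 lies above the others in growth medium and in hypoxic differentiation medium.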

How the data were processed

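The authors deposited 1 gene table of FPKM values for the 8 RNA-seq libraries; the submitters' processing notes name STAR 2.5.1b, Cufflinks 2.2.1 and build mm9 without their roles. Any scaling between libraries, the annotation and the use of strand in counting are not given in the sources used here, although the labels' protocols describe strand-specific total RNA libraries. The 8 H3K27me3 and 8 input samples were not analysed here. Depth is unknown beyond the value of a fragment, read from the lowest values of single-exon olfactory receptor genes of 900 to 1000 bp. FPKM are not counts, so limma 3.58.1 (R 4.3.3) was fitted with a variance trend to log2(FPKM + 1) of all 8 libraries as 4 group means (4 residual and 2.61 prior degrees of freedom), for the 12389 genes with a mean of at least 1 FPKM in a group. Tests were two-sided with Benjamini-Hochberg adjustment over those genes, and with 2 replicates a group, p-values rest on the pooled spread. A fit without 1 library leaves 1 in its group, whose spread then drops out of the pooled one. Calls gained in such fits are therefore not taken as support. The fit was tested on simulated data. The members and lists were chosen with earlier results of these data known. Named from the lists were chemokine system genes with a group mean of at least 10 FPKM, up to 3 genes of largest change per other list and comparison, and the 5 nearest profiles; other names were chosen after their values were seen. Symbols were used as deposited, with 22462 of 24043 current. Promoters are RefSeq's on GRCm38.p6, another build than the authors'. Alternatives changed the pseudocount (0.1), filter (none, or 5 FPKM), scaling, weights, libraries fitted, replicate block, threshold and libraries left out; those on list counts were added after seeing the data. Replicate letters were checked for pairing: correlations of A minus B between groups ran from -0.166 to 0.042, and the letters were not taken to pair samples.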

Additional observations from a re-analysis of the deposited data

Results flagged for a closer look

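For 6 of the 8 tested members the change with differentiation medium differed between 2% and 21% oxygen by the limma interaction test, given as the log2 change in hypoxia minus that in normoxia. It was positive for Cxcl5 (2.77 ± 0.16, adjusted p 3.08e-05), Ccl2 (2.55 ± 0.54, adjusted p 0.00746), Cxcr4 (1.35 ± 0.13, adjusted p 3e-04) and Ccl7 (0.89 ± 0.25, adjusted p 0.0215). For Cxcl5 and Cxcr4 the fall in hypoxia was smaller than that in normoxia, and for Ccl2 a fall in normoxia stood against a rise in hypoxia. It was negative for Cxcl10 (-4.26 ± 0.60, adjusted p 0.00133) and Il6 (-1.87 ± 0.57, adjusted p 0.0305), where the rise was found in normoxia. Over all genes 54.1% passed this test, 35.4% with a positive and 18.7% with a negative sign. The calls of the Ccl7 and Il6 interactions and of both Ccl2 changes did not hold in several of the alternatives described above, most of them without 1 library.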

How the results depend on the processing

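Over 695 alternatives to 44 member results, 614 kept their direction and side of the threshold or, for untested Cxcl12 values, stayed within their spread. Of the rest, 42 lost a call, 21 gained one, 8 changed sign and 10 untested Cxcl12 values moved by more than their spread. The Cxcl12 change with hypoxia in growth medium passed in 1 alternative, with only those libraries fitted (-0.20, adjusted p 0.0454). The 8 changes of sign, in changes that had not passed or were not tested, were those of Cxcl12 (-0.13; 0.46 at the other end without 1 library) and Il6 (-0.30; 1.04) with differentiation medium in hypoxia, Cxcl1 (0.16; -0.72), Cxcl5 (0.05 and 0; -0.17) and Ccl2 (-0.15; 1.12) with hypoxia in differentiation medium, and the Cx3cl1 interaction (-0.04 and -0.05; 0.59). Removal of 1 library gave 7 of them and median-of-ratios scaling the other; the cause was not tested. Chemokine system genes that passed numbered 15, 8, 11, 10 and 14 (differentiation medium in normoxia, in hypoxia, hypoxia in growth medium, in differentiation medium, interaction). They were out of 18 tested, or 19 with hypoxia in growth medium, where 66.5%, 40.9%, 41.4%, 65.2% and 54.1% of all genes passed. The tested genes include the 6 ligands whose direction the filter set. A filter of 5 FPKM tests fewer genes, 11 here or 12 with hypoxia in growth medium. It left 8 with differentiation medium in normoxia, 7 with hypoxia in growth medium, 6 with hypoxia in differentiation medium and 8 in the interaction. A log2 change of at least 1 left 6 with hypoxia in differentiation medium. Genes that reach 1 FPKM in a single group were also set aside, an alternative chosen after seeing the data. Of 12 left (13 with hypoxia in growth medium), 9 passed with differentiation medium in normoxia, where 66.1% of all genes did. With hypoxia 7 passed in growth medium (42.1% of all genes) and 6 in differentiation medium (64.9%), and the interaction passed for 8 (52.8%). Leaving out 1 library gave 13 to 16, 7 to 11, 9 to 14, 7 to 13 and 11 to 17. With the replicate block they were 15, 8, 11, 9 and 14, and the block changed no member's call; the letters do not pair the samples (8241 genes passed with differentiation medium in normoxia, 7931 with the block). The median change of all genes with differentiation medium in normoxia moved from -0.199 to 0.024 under median-of-ratios scaling, and the interaction's from 0.267 to -0.015. Under it the CXCL12 signalling list had 3 of 7 higher and 1 lower with hypoxia in growth medium. In the main fit the list had 3 and 3.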

Other observations

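The following genes were named after their values were seen. Ifnb1, the gene of interferon beta, was listed at 0 in 6 libraries and at 1.231 and 1.428 FPKM in normoxic differentiation medium. In that group Cxcl10, Cxcl9 and the listed interferon response genes other than Irf1 were highest. All Ifna genes in the table were listed at 0. Tlr3, a sensor of double-stranded RNA, lay between 0.41 and 1.155 FPKM in all libraries and passed in no comparison (lowest adjusted p 0.0616, limma).

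Ccl8, a monocyte-attracting ligand, was at 4.077 and 3.303 FPKM in normoxic and 2.384 and 2.357 in hypoxic growth medium, against 3.11 and 2.313 in normoxic and 6.933 and 9.394 in hypoxic differentiation medium. Its 2 hypoxic differentiation libraries lay above all others, and it rose with differentiation medium in hypoxia (log2 1.43, adjusted p 0.00158, limma) and with hypoxia in differentiation medium (1.30, adjusted p 0.000687). Cd68, a lysosomal glycoprotein gene used as a macrophage marker, was at 25.75 and 42.75 FPKM in hypoxic differentiation medium and between 1.758 and 3.574 FPKM elsewhere. Of the other macrophage markers of the list, Adgre1 was listed at 0 in all libraries, Csf1r was at most 0.1668 FPKM and Itgam at most 0.1409 FPKM. The change of Cd14 with differentiation medium in hypoxia was -0.25 (adjusted p 0.337, limma). With hypoxia in differentiation medium Cd14 rose (1.85, adjusted p 0.000179, limma), as Cd68 did (3.47, adjusted p 3.88e-05). Cd14 was at 9.899 to 11.05 FPKM in growth medium, 1.808 and 1.791 in normoxic and 7.202 and 11.44 in hypoxic differentiation medium.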
